A study of Homo sapiens with 21 samples.

Results

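Tri-C captures DNA fragments that were ligated together with a chosen viewpoint, and a read with at least a pair of further fragments, called reporters, records a contact among 3 or more positions at once. The measurements described here are those of DNTT, the gene of terminal deoxynucleotidyl transferase (ENSG00000107447.8, hg38, chromosome 10, positions 96304409 to 96338564, plus strand). All deposited pair tables of this locus were taken, 7 of the 371 tables in the series, 4 from a capture at a DNTT enhancer and 3 from a capture at a CTCF-binding site (CBS) of the domain boundary. The tables held between 22758 and 58908 pairs of reporter fragments each.

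The cells were BLaER, a human B cell leukaemia line that turns into macrophage-like cells once C/EBPα is activated. Both captures were made in uninduced cells (0 h) and at 24 h and 96 h of conversion. The enhancer was also captured at 96 h in a BLaER subclone, CTCF-AID, in which CTCF carries an auxin-inducible degron, after auxin (96 h-depl). This library was set against the 96 h library of BLaER cells without auxin, so the subclone, auxin and the loss of CTCF cannot be told apart. Each condition had 3 biological replicates but 1 table, which is attached to replicate 1 in the labels. It was taken as the sum of the 3, since the study's methods say that replicates were merged. Either way every condition is 1 library, and every p-value below compares a pair of libraries and not a pair of conditions.

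Terminal transferase adds nucleotides without a template at the joints of rearranging immunoglobulin and T cell receptor genes, and its gene is used in early lymphoid cells and silent in macrophages. Enhancers are thought to act on promoters that they meet in space. CTCF bound at oppositely oriented motifs halts cohesin as it extrudes chromatin loops, and such sites often lie at the edges of contact domains.

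The enhancer viewpoint lay 68.3 kb upstream of the DNTT start, in intron 3 of BLNK, the neighbouring gene for an adaptor of the B cell receptor. Its restriction fragment was chr10:96236001-96236173. The boundary viewpoint, on the fragment chr10:96340366-96340591, lay 36.0 kb downstream of the start, between DNTT and OPALIN, a gene of myelinating glia, and 104.4 kb from the enhancer. The study lists further elements in the locus, of which the following lie far enough from the enhancer to be measured. By their distance from the DNTT start, they are CTCF sites at -610.3 kb, at -287.0 kb (in an intron of CC2D2B) and at -10.9 kb, an enhancer at -16.5 kb in intergenic sequence and an enhancer at 2.2 kb in intron 1 of DNTT. The CTCF site at -10.9 kb lies in an exon of the lncRNA ENSG00000229418, which runs antisense across the DNTT start. All 126898 reporter fragments of the 7 tables were flanked on both sides by CATG in hg38, the site of the restriction enzyme NlaIII.

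The CTCF sites are shown first, since their orientation bears on which sites could form a loop. A 12-base core of the CTCF motif was searched on both strands in 500 bases around the centre of each CTCF site, with the capital letters that all 5 sequences below share required and the others left free. The width was set after the matches were seen, to include one that lay 205 bases from the centre at -10.9 kb, so that a match at each site is a description and no test. Of 500-base stretches of chromosome 10, 3.86% hold the core. The sites at -610.3 kb, -287.0 kb and -74.7 kb read forward, and those at -10.9 kb and at the boundary read in reverse. The forward sites thus face the site at -10.9 kb across the enhancer, and the boundary site across the enhancer and the gene. Each is given 5′ to 3′ on the strand that carries the core, which is in capitals.
CTCF site at -610.3 kb, plus strand, chr10:95694152-95694211: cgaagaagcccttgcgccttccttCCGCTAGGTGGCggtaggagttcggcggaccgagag
CTCF site at -287.0 kb, plus strand, chr10:96017367-96017426: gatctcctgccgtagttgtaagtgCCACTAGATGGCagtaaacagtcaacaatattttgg
CTCF site at -74.7 kb, next to the enhancer viewpoint, plus strand, chr10:96229688-96229747: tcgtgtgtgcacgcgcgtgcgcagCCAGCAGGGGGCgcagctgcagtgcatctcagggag
CTCF site at -10.9 kb, minus strand, chr10:96293672-96293731: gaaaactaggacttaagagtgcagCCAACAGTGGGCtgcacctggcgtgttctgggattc
Boundary site, minus strand, chr10:96340458-96340517: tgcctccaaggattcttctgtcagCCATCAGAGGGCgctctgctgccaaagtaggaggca

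The enhancer viewpoint and the promoter are shown because the contacts between them carried the main changes. Capitals mark matches, on either strand, to letters that known B cell, myeloid or general factors favour. The letters CAGGTG are those of the E-box that E2A binds. The B cell factor EBF1 favours CCCNNGGG, in which N is any base, and the lymphoid factor Ikaros TGGGAA. For the myeloid and lymphoid factor PU.1, GAGGAA was searched. For the haematopoietic factor RUNX1, TGTGGT was searched. The letters of C/EBP were TTGCNNAA. Those of the TATA box were TATAAA. The promoter is the RefSeq sequence (GRCh38.p14) of the 250 bases before the start.
Enhancer viewpoint, plus strand, chr10:96235939-96236238: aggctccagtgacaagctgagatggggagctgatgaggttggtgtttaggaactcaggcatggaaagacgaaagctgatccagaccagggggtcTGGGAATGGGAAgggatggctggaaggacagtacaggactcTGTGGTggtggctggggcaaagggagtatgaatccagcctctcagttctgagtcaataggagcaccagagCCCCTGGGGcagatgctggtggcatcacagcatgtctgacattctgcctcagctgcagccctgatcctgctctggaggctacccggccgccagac
DNTT promoter, plus strand, chr10:96304184-96304433: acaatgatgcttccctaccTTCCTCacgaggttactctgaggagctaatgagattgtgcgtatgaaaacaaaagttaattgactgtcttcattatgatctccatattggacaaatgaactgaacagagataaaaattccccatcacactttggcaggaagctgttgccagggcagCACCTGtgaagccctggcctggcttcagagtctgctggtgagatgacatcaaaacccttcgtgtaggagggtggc

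The enhancer viewpoint held a pair of adjacent Ikaros matches, a RUNX1 match and a pair of overlapping EBF1 matches. At least 1 match to the letters of Ikaros occurs in 23.2% of 300-base stretches of chromosome 10, to those of RUNX1 in 19.6% and to those of EBF1 in 4.98%. The promoter held the E2A letters in reverse, 75 bases before the start, and those of PU.1, which occur in 17.5% and 23.6% of the same 250 bases of all RefSeq promoters. The letters of C/EBP and of the TATA box were in neither sequence. They occur in 9.05% and 10.7% of those promoters and in 15.5% and 27.9% of the 300-base stretches. Those of EBF1, Ikaros and RUNX1 were also absent from the promoter, and those of E2A and PU.1 from the enhancer viewpoint. These matches describe letters only and say nothing of binding.

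Contacts were counted from distant pairs, in which the viewpoint and both reporters were more than 10 kb apart, and are given as a share of all pair counts within 1 Mb of the viewpoint. A window of 12 kb was set around each element. E-P-X are contacts of the enhancer with the promoter and any other fragment, E-C-X those with the boundary site and any other fragment, and E-P-C those of all 3. Seen from the boundary site, C-P-X stands for contacts with the promoter, C-E-X for those with the enhancer and C-E-P for the full triple. The totals were 50419 (0 h), 65734 (24 h), 50404 (96 h) and 69640 (96 h-depl) counts from the enhancer and 28150, 35345 and 26377 counts from the boundary site in the same order. A count of 0 would have allowed a share of up to 0.0114% in the shallowest of these libraries. Intervals of shares are exact, those of odds ratios take the rest of the total as fixed, and both cover counting error only. A read with several reporters gives several counts, so these errors are too small.

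The DNTT enhancer lost contacts with its promoter within the first day and gained contacts with the boundary site. E-P-X contacts made up 3.43% of counts at 0 h (1728 counts, 95% interval 3.27 to 3.59), 2.10% at 24 h (1380 counts, 1.99 to 2.21) and 2.11% at 96 h (1064 counts, 1.99 to 2.24). The 0 h library stood above both later libraries, whose intervals overlapped. The fall by 24 h was -0.73 on the log2 scale of the odds ratio [-0.83, -0.62] (two-sided exact binomial test, exact p = 1.53e-43 after Benjamini-Hochberg adjustment over 51 loci; all p-values below are adjusted in this way), a change that 27.5% of the loci shared in this direction. Among the 15 loci that the study classes as B cell loci, DNTT included, 86.7% were called lower by 24 h. From 24 h to 96 h the log2 odds ratio was 0.0083 [-0.11, 0.12] (exact p = 0.921), with 74.5% of loci called in either direction. This step passed the threshold in opposite directions under 2 alternatives, at 0.083 in windows of 30 kb (exact p = 0.0279) and at -0.13 against the whole chromosome (exact p = 0.0432).

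The boundary site went the other way. E-C-X contacts took 1.13% of counts at 0 h (571 counts, 1.04 to 1.23), 1.56% at 24 h (1028 counts, 1.47 to 1.66) and 1.81% at 96 h (912 counts, 1.69 to 1.93). Every library stood above the one before it and no intervals overlapped. The rise by 24 h was 0.47 [0.32, 0.62] (exact p = 1.15e-09, with 45.1% of the loci called higher). The further rise to 96 h was 0.21 [0.084, 0.34] (exact p = 0.00194, with 58.8% called higher), and it was no longer called in windows of 7.5 kb, against the whole chromosome or with counts divided by 3. The complete triple E-P-C held few counts, 43 at 0 h, 50 at 24 h and 50 at 96 h. Its share was 0.0853%, 0.0761% and 0.0992%, with overlapping intervals, and neither step passed the test (exact p = 0.695 and 0.300), where 26.9% and 42.4% of the loci with enough counts were called in either direction.

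**Figure D1:**
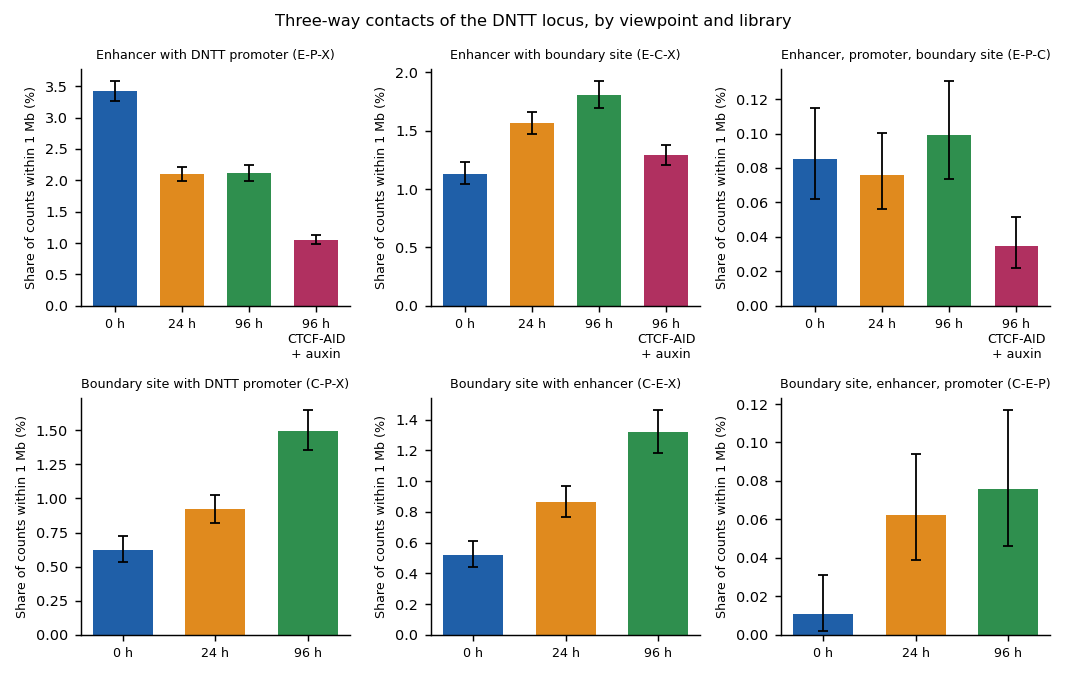
Share of pair counts within 1 Mb of the viewpoint (vertical axes, percent) for each library of the DNTT locus (horizontal axes), with the enhancer captured in the upper row and the boundary site in the lower row; bars are pooled libraries and error bars exact 95% binomial intervals of counting error. Promoter contacts of the enhancer fell from 3.43% at 0 h to 2.10% at 24 h, while all 3 measures of the boundary site were higher at 96 h than at 0 h.

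Seen from the boundary site, the promoter and the enhancer were both contacted more often as conversion went on. C-P-X contacts took 0.625% of counts at 0 h (176 counts, 0.536 to 0.724), 0.920% at 24 h (325 counts, 0.823 to 1.02) and 1.50% at 96 h (395 counts, 1.35 to 1.65). The rises were 0.56 [0.29, 0.83] by 24 h (exact p = 0.000121, 41.7% of 48 loci called higher) and 0.71 [0.50, 0.93] from 24 h to 96 h (exact p = 3.02e-10, 54.2% called higher). The first of these was lost when counts were taken as a share of distant counts or divided by 3. At 96 h against 0 h the promoter was thus contacted less by the enhancer (-0.72) and more by the boundary site (1.27). The fall from the enhancer came by 24 h, and the larger step from the boundary site came from 24 h to 96 h.

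C-E-X contacts took 0.519% of counts at 0 h (146 counts, 0.438 to 0.610), 0.863% at 24 h (305 counts, 0.769 to 0.965) and 1.32% at 96 h (348 counts, 1.19 to 1.46). The steps were 0.74 [0.45, 1.03] (exact p = 1.80e-06, 27.5% of 51 loci called higher) and 0.62 [0.39, 0.85] (exact p = 1.84e-07, 56.9% called higher). The direction was that of E-C-X from the opposite viewpoint. The triple C-E-P went from 3 counts at 0 h to 22 at 24 h and 20 at 96 h. Its log2 odds ratio by 24 h was 2.36 [0.81, 4.93] (exact p = 0.00627, 19% of 21 loci called higher). At 96 h against 0 h it had a log2 odds ratio of 2.64 [1.08, 5.23] (exact p = 0.000668, 48.1% of 27 loci called higher). It rests on few counts, and in windows of 7.5 kb, with each pair counted once or with counts divided by 3 there were too few to test either change. In windows of 30 kb it had 64, 89 and 121 counts. The change by 24 h was then 0.14 (exact p = 0.895) and that at 96 h against 0 h 1.01 (exact p = 9.90e-06).

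**Figure D2:**
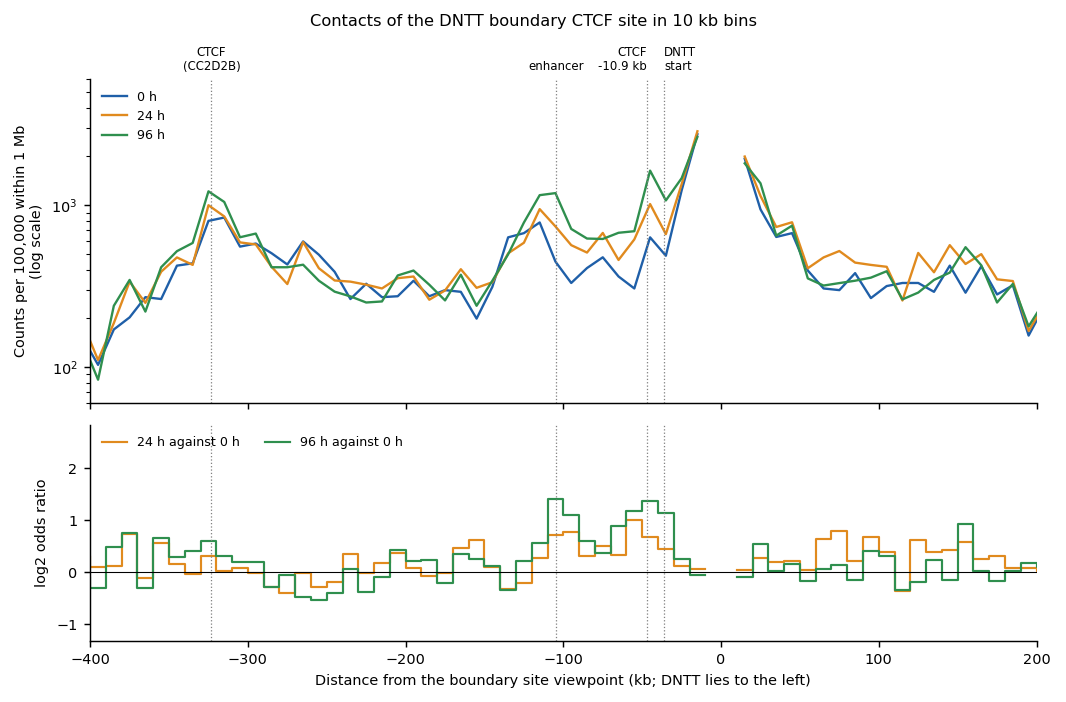
Contacts of the boundary CTCF site in 10 kb bins (upper panel, counts per 100,000 within 1 Mb, log scale) and log2 odds ratios between libraries (lower panel) against the distance from the boundary viewpoint in kb, with lines for pooled libraries and dotted lines at listed elements; bins within 10 kb of the viewpoint are left out. The 96 h line lies above the 0 h line from the enhancer to the DNTT start, with log2 odds ratios of up to 1.41.

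Where along the locus contacts changed was followed in 10 kb bins within 500 kb of the viewpoint. From the enhancer, 34 of 98 bins were higher at 24 h than at 0 h and 4 were lower, against 18.9% and 17.4% of the bins of all loci. Distant pairs made up 28.2% of counts at 0 h and 31.0% at 24 h. A bin that only kept its share of distant counts would therefore also be higher on the total used here. Bins were not tested as a share of distant counts. Of the 4 lower bins, 3 were neighbours that lay 50 to 80 kb from the enhancer and held the CTCF site at -10.9 kb and the DNTT start, with log2 odds ratios of -0.44, -0.69 and -0.54. Beyond them, each of the 6 bins from 100 to 160 kb was higher, by 0.46 to 1.07. The boundary site lay in the first of these 6 bins. With counts divided by 3, 5 bins were called higher and 3 lower.

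In 3 kb steps around the DNTT start, each step from 27 kb before the start to 12 kb after it was lower at 24 h than at 0 h, by the least in the step 18 to 21 kb before the start, with 440 and 427 counts per 100,000. The highest step at 0 h lay 3 to 6 kb before the start, with 1279 counts per 100,000, and had 812 at 24 h and 873 at 96 h. The step from 0 to 3 kb after the start had 764, 400 and 411 per 100,000. The step that holds the CTCF site at -10.9 kb, 9 to 12 kb before the start, had 1077, 812 and 990, and the step beside it, 12 to 15 kb before the start, 1275, 930 and 1230. The steps nearer to the gene stayed lower, with 583, 411 and 464 at 6 to 9 kb before the start and 690, 427 and 504 in the last step before it. Farther into the gene the order turned over, and the step 30 to 33 kb after the start, near the end of DNTT, held 476, 504 and 696. These steps were described without a test.

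**Figure D3:**
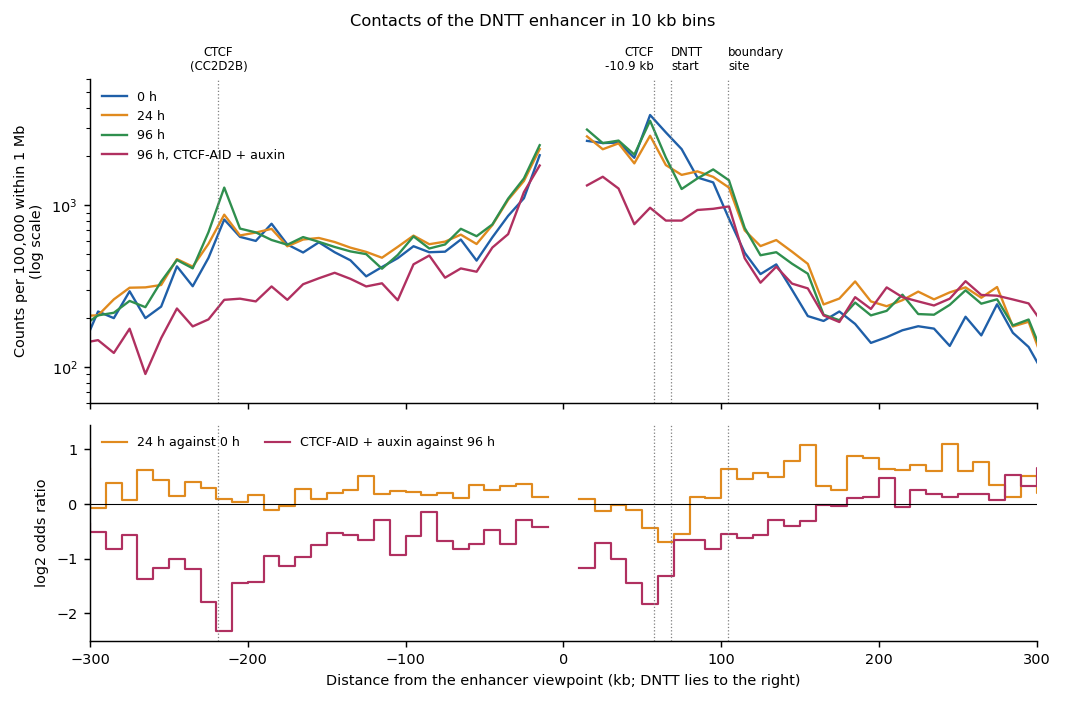
Contacts of the DNTT enhancer in 10 kb bins (upper panel, counts per 100,000 within 1 Mb, log scale) and log2 odds ratios between libraries (lower panel) against the distance from the enhancer viewpoint in kb; lines are pooled libraries, dotted lines mark listed elements, and bins within 10 kb of the viewpoint are left out. The dip of the 24 h ratio between 50 and 80 kb covers the CTCF site at -10.9 kb and the DNTT start, and the depleted library has its deepest dips at that CTCF site and at the one in CC2D2B.

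The elements between the enhancer and the gene were measured in windows of 7.5 kb, since the wider windows of the site at -10.9 kb and of the promoter overlap. The window of the enhancer in intron 1 of DNTT lies within the 12 kb window of the promoter and includes the DNTT start, so its counts are part of the promoter's and are no separate measurement. It fell from 1.86% of counts at 0 h (939 counts) to 1.13% at 24 h (741) and 1.03% at 96 h (518). Its change by 24 h was -0.73 (exact p = 5.44e-24, adjusted over 975 element windows of all loci, of which 15.1% were lower). From 24 h to 96 h it was -0.13 (exact p = 0.155). The enhancer at -16.5 kb held 2.30%, 1.73% and 2.04% of counts, and the CTCF site at -10.9 kb 2.49%, 1.84% and 2.33%. Both fell by 24 h, by 0.42 (exact p = 3.95e-11) and 0.44 (exact p = 3.12e-13), and both rose again by 96 h, by 0.24 (exact p = 0.000273) and 0.35 (exact p = 2.49e-08), with 46% of windows called higher in that step. Their windows overlap each other and share counts.

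Pairs that joined these elements with the promoter also fell by 24 h, and their values from 24 h to 96 h did not pass the test. The enhancer at -16.5 kb and the promoter were captured together 107 times at 0 h, 29 times at 24 h and 33 times at 96 h. The change by 24 h was -2.25 (exact p = 3.84e-15, with 17.2% of 308 such windows lower), beside -0.42 for that enhancer with any fragment, a difference that was not tested. The CTCF site at -10.9 kb and the promoter had 89, 36 and 42 counts together, a change of -1.68 (exact p = 1.26e-08). Reporters within 10 kb of each other are left out, so in every library many pairs between these close windows are not counted. Their counts are therefore not level with those of the enhancer at -16.5 kb. From 24 h to 96 h the values were 0.57 (exact p = 0.231) and 0.60 (exact p = 0.143), with 33.2% of 376 windows called in either direction. In windows of 12 kb, the enhancer at -16.5 kb with the promoter had 223, 116 and 108 counts and a change of -1.33 by 24 h.

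The CTCF site at -287.0 kb, whose motif faces the boundary site, gained contacts from both viewpoints. From the enhancer it held 0.607% of counts at 0 h (306), 0.564% at 24 h (371) and 0.863% at 96 h (435). The step to 96 h was 0.62 (exact p = 6.58e-09), and the step to 24 h -0.11 (exact p = 0.451). From the boundary site the same window held 0.679%, 0.860% and 1.07% of counts (191, 304 and 282). There it was already higher by 24 h, by 0.34 (exact p = 0.0268, with 31.2% of windows called higher), a call that was lost in windows of 12 kb (0.23, exact p = 0.0653). Distant pairs made up 20.3% of counts from the boundary site at 0 h and 24.5% at 24 h. Of distant counts the site took 3.34% at 0 h, 3.51% at 24 h and 4.41% at 96 h. In windows of 12 kb these values were 5.45%, 5.29% and 6.53%, so the early rise rests on the total used. The step to 96 h was 0.32 (exact p = 0.0222, with 36.5% called higher), and 96 h was 0.66 above 0 h (exact p = 2.73e-06). Of the 10 element windows seen from the boundary site, 9 were higher at 96 h than at 0 h, where 51.5% of 994 windows of all loci were. The windows of the 5 elements from -74.7 kb to -59.9 kb overlap their neighbours, as do those at -16.5 kb and -10.9 kb, so the same contacts are counted in several of the 9. The CTCF site at -10.9 kb rose by 1.18 (exact p = 1.51e-15), from 139 to 294 counts. The exception was the site at -610.3 kb, with 39 and 40 counts and a value of 0.13 (exact p = 0.803), which in windows of 12 kb had 58 and 85 counts and was called higher (0.64, exact p = 0.0156, with 55.4% of such windows higher).

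The maps of reporter pairs show the same locus in 2 dimensions. At 0 h the pairs with both reporters between the enhancer and the far edge of the 12 kb promoter window formed a dense square. They held 1698 counts or 3.37% at 0 h, 1398 or 2.13% at 24 h, 1267 or 2.51% at 96 h and 556 or 0.798% in the 96 h-depl library. The square was thus densest at 0 h, and it was chosen after the maps were seen. A bin at its corner, only in part inside it, which pairs sequence 50 to 60 kb from the enhancer with sequence at 70 to 80 kb, had 349, 131, 145 and 33.0 counts per 100,000 in the 4 libraries. The bin that pairs 30 to 40 kb with 50 to 60 kb, both on the near side of the DNTT start, had 252, 187, 278 and 81.8.

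**Figure D4:**
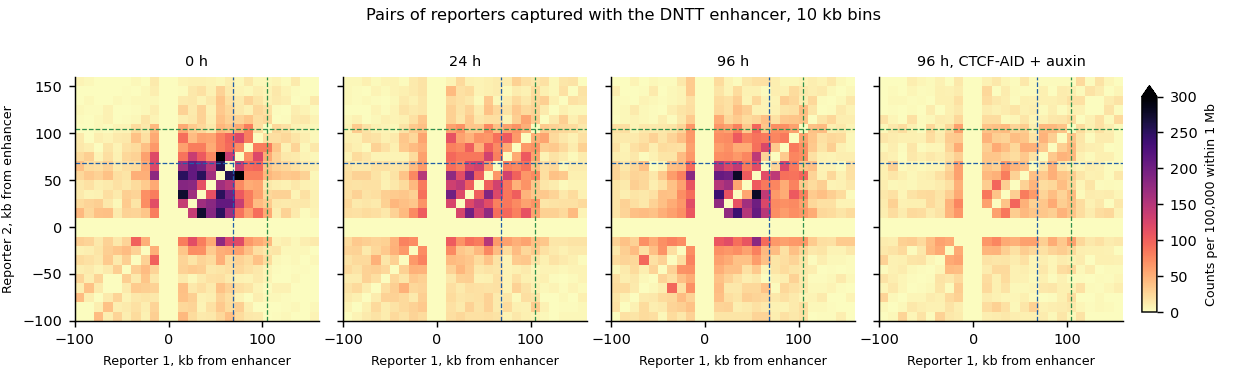
Pairs of reporters captured together with the DNTT enhancer, in bins of 10 kb, with both axes giving the distance of a reporter from the enhancer in kb and colour the counts per 100,000 within 1 Mb in each pooled library; dashed lines mark the DNTT start and the boundary site, and pairs within 10 kb of the viewpoint or of each other are left out. The square from the enhancer to the far edge of the promoter window holds 3.37% of counts at 0 h and 0.798% in the 96 h-depl library.

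The promoters of 10 other genes lie within 500 kb of the enhancer. BLNK, whose gene body holds the enhancer, had its start 35.5 kb away, and the enhancer contacted it with 2.94% of counts at 0 h (1482), 2.89% at 24 h (1899) and 3.01% at 96 h (1515). Its changes were -0.026 (exact p = 0.713, adjusted over 496 promoter windows of all loci) and 0.059 (exact p = 0.396). Neither passed the test as a share of counts within 1 Mb. As a share of distant counts, BLNK took 10.43% at 0 h, 9.32% at 24 h and 10.01% at 96 h. On that total BLNK was thus lower at 24 h than at 0 h, which was not tested. Of the 11 promoters, DNTT and PIK3AP1 fell by 24 h and 4 rose, against 18.1% and 29% of all such windows. The risers were OPALIN beyond the boundary site, with 0.478% and 0.703% and a change of 0.56 (exact p = 4.88e-06), and ENTPD1, TLL2 and ENSG00000270099. As a share of distant counts these 4 were also higher at 24 h than at 0 h, which was not tested. OPALIN took 1.70% and 2.27%, ENTPD1 0.746% and 0.918%, TLL2 0.971% and 1.14%, and ENSG00000270099 0.521% and 0.874%. PIK3AP1, an adaptor of phosphoinositide 3-kinase in B cells, fell by 0.49 (exact p = 0.0449) on 95 and 88 counts, a call that was lost in windows of 7.5 kb. From 24 h to 96 h it went from 88 to 30 counts, a change of -1.15 (exact p = 0.000327, with 19.4% of 494 windows lower). TM9SF3 changed by -0.63 in that step (exact p = 0.00909). At 96 h against 0 h PIK3AP1 had -1.65 (exact p = 1.50e-08), the lowest value of the 11 promoters, beside -0.72 for DNTT. From the boundary site, DNTT, BLNK and ENSG00000270099 were higher at 96 h than at 0 h, against 28.6% of 482 windows, and BLNK rose by 0.48 where DNTT rose by 1.27.

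Reporters that lay past the boundary site were counted among all distant reporters on that side of the enhancer. Both reporters of a pair could enter, and the test took the rest as fixed although it was of like size. The intervals of this share and of its odds ratios are therefore too narrow, and its p-values too small. They made up 32.9% at 0 h (32.2 to 33.7), 43.3% at 24 h (42.6 to 43.9) and 36.2% at 96 h (35.4 to 36.9). It was highest at 24 h and all 3 intervals were apart. The log2 odds ratios were 0.64 by 24 h (exact p = 3.27e-143, 41.2% of loci higher) and -0.43 from 24 h to 96 h (exact p = 2.61e-68, 72.5% lower). The median distance of a distant reporter from the enhancer moved alike, from 101 kb to 132 kb and 109 kb. Among the enhancer libraries of the conversion, that of 24 h thus held the longest contacts by the median, and it was also the deepest of the 3. From the boundary site the median distances were 202.2 kb at 0 h, 202.5 kb at 24 h and 182.8 kb at 96 h.

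In the 96 h-depl library the DNTT enhancer had fewer contacts with its promoter and with the CTCF sites inside the domain, and a larger part of its contacts lay beyond the boundary. Distant pairs made up 21.0% of counts in this library and 28.2% to 31.0% in the other enhancer libraries, and their share was lower than at 96 h at 100% of the 51 loci. The main values below are therefore given also as a share of distant counts. E-P-X contacts had 735 counts, 1.06% (0.981 to 1.13) against 2.11% at 96 h, a change of -1.02 [-1.15, -0.88] (exact p = 3.25e-49, 92.2% of loci lower). Of distant counts, they took 5.03% against 7.03%, a change of -0.52 (exact p = 2.45e-13).

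E-C-X contacts had 900 counts, 1.29% (1.21 to 1.38) against 1.81%, a change of -0.49 [-0.63, -0.36] (exact p = 5.01e-13, 92.2% of loci lower). Of distant counts they took 6.15% against 6.03%, a change of 0.032 (exact p = 0.668), so that the call and its direction rest on the total used. E-P-C fell from 50 to 24 counts, by 1.51 (exact p = 3.70e-05, 70% of 30 loci lower) and by 1.00 of distant counts (exact p = 0.0106). Reporters past the boundary site rose from 36.2% to 57.3% (56.5 to 58.1), a log2 odds ratio of 1.24 [1.19, 1.29], with 96.1% of loci higher. For this share the intervals are too narrow, as said above. The median distance of distant reporters was 173 kb against 109 kb.

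Of the measured elements with any fragment, the CTCF sites at -287.0 kb and -10.9 kb fell most between the 96 h and the 96 h-depl library. The CTCF site at -287.0 kb had 112 counts against 435 and changed by -2.43 (exact p = 3.22e-71, in windows of 7.5 kb, of which 81.8% were lower). The CTCF site at -10.9 kb had 460 against 1174, a change of -1.84 (exact p = 2.53e-133). Of distant counts these sites took 0.766% against 2.88% and 3.15% against 7.76%, so that both were lower on either total. The overlapping window of the enhancer at -16.5 kb changed by -1.71. The enhancer in intron 1 changed by -0.82 (exact p = 2.31e-17) and took 2.79% of distant counts against 3.42%. Together with the promoter, the CTCF site at -10.9 kb had 13 counts against 42 and the enhancer at -16.5 kb 7 against 33, changes of -2.12 and -2.63 (exact p = 1.43e-06 and 1.51e-06, with 58.3% of 369 windows lower). The site at -610.3 kb had 156 counts in the 96 h-depl library and 126 at 96 h, with a value of -0.16 (exact p = 0.392). In windows of 12 kb it had 252 and 230 counts and was called lower (-0.34, exact p = 0.0130, with 84.9% of such windows lower).

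The promoters nearest to the enhancer on either side fell in the 96 h-depl library, 6 of 11 against 48.4% of 490 windows. No promoter was called higher as a share of counts within 1 Mb, against 10.2% of windows. Those that fell were DNTT (-1.02), BLNK (-1.07, from 3.01% to 1.45%), ZNF518A (-0.69), CCNJ (-1.26), CC2D2B (-1.32) and OPALIN (-0.53). OPALIN lies just beyond the boundary site and CC2D2B starts beyond the CTCF site in its intron. The other 5 had values from -0.11 to 0.42. Of distant counts BLNK took 6.92% against 10.01%, and OPALIN 2.15% against 2.17%. On that total the other 5 were higher than at 96 h, which was not tested. ENTPD1 took 1.24% against 0.740%, ENSG00000270099 1.13% against 0.853% and TLL2 1.73% against 1.06%. TM9SF3 took 0.752% against 0.456% and PIK3AP1 0.383% against 0.198%. In 10 kb bins 49 of 98 were lower and 5 higher, against 52.8% and 9.89% of bins of all loci, and all 5 higher bins lay 200 kb or more from the enhancer on the side of the boundary.

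DNTT was set beside the other 50 loci. In its promoter contacts it lay in the middle of the 15 B cell loci by 24 h, at their median of -0.73, with a range from -1.49 to 0.0077. By the pattern of E-P-X over the 4 enhancer libraries, RAG2 was most like it (Euclidean distance of centred log2 odds 0.13), followed by IGLL5 (0.15) and BCL2 (0.22), with a median distance of 1.17 over 50 loci. RAG2 encodes a subunit of the recombinase that makes the joints on which terminal transferase acts, and BCL2 a survival factor. In C-E-X and C-P-X, which are seen from the boundary site, DNTT stood near the top of the loci. In C-E-X at 96 h against 0 h, which 54.9% of loci raised, DNTT had 1.36 [1.08, 1.65], the highest of the 15 B cell loci, whose median was 0.30, and rank 48 from the lowest of 51. In C-P-X, raised at 66.7% of loci, it had 1.27 [1.01, 1.54] and rank 44 of 48. Seen from the enhancer, the boundary contacts of DNTT stood out less. E-C-X at 96 h against 0 h was 0.69 [0.53, 0.84], with 60.8% of loci called higher. Its rank from the lowest was 33 of 51, and 12 among the 15 B cell loci.

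RAG2, IGLL1 and IGLL5 were compared with DNTT as loci of V(D)J recombination and the pre-B or B cell receptor. C-E-X at 96 h against 0 h was 0.032 at RAG2 (2556 and 2211 counts), 0.30 at IGLL1 (302 and 334) and 0.74 at IGLL5 (497 and 696). DNTT lay above them by 1.32 [1.03, 1.62], 1.05 [0.69, 1.41] and 0.62 [0.29, 0.94]. In C-P-X it lay above them by 1.13 [0.85, 1.42], 0.74 [0.39, 1.10] and 0.78 [0.49, 1.08]. The intervals of all 6 differences left out 0. In E-P-X at 96 h against 0 h the difference was 0.037 [-0.13, 0.20] to RAG2 and -0.0079 [-0.19, 0.17] to IGLL5, and IGLL1 fell by 1.71, with DNTT above it by 1.00 [0.73, 1.26].

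In the 96 h-depl library RAG2 and DNTT lost promoter contacts by nearly the same amount, with a difference of 0.00037 [-0.20, 0.21]. Their boundary sites differed. E-C-X fell by 2.41 at RAG2, from 1380 to 358 counts, and the DNTT value lay above it by 1.91 [1.70, 2.13]. Against IGLL1 the difference was 0.92 [0.55, 1.29] and against IGLL5 it was -0.19 [-0.40, 0.027]. Reporters past the boundary site rose most at DNTT among the 15 B cell loci, where the median was 0.62.

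**Figure D5:**
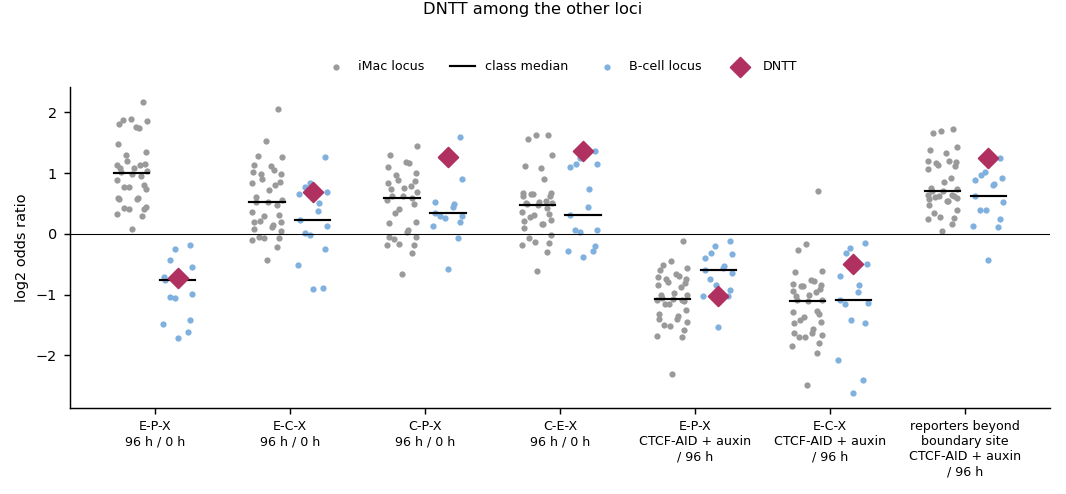
Log2 odds ratios between pooled libraries (vertical axis) of 7 measures at each locus, with grey points for iMac loci, blue points for B-cell loci, black lines for class medians and a diamond for DNTT. DNTT lies near the B-cell median in E-P-X at 96 h (-0.72 against -0.76) and at the top of the B-cell loci in C-E-X and in reporters past the boundary site.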

How the data were processed

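Tri-C libraries of 21 samples (7 groups of 3 biological replicates, each with 3 technical replicates per the labels) were processed by the authors with CapCruncher on hg38, and replicates were merged. The deposited values are counts, without normalization, of each pair of reporter fragments from reads with 2 or more reporters on the viewpoint's chromosome; all pairs of a read are counted. Groups follow the sample labels. Fragment midpoints decided windows of 12 kb around viewpoint positions, GENCODE 44 starts and listed elements. Total counts within 1 Mb were 26377 to 69640 per library, and 3 counts were taken as the floor. Window counts against the rest of the total were compared by exact conditional binomial tests (SciPy 1.17.1), two-sided, with a pseudo-count of 0.5 in log2 odds ratios, at least 20 counts and Benjamini-Hochberg adjustment over all loci (51, of 53 captured; IFNGR2 and TASL were left out, as in the study, for low data quality), promoters, elements or bins; calls were at 0.05. The test takes the rest of the total as fixed, so its intervals are too narrow where a measure holds much of the total. It was tested on simulated data with small window shares. One item of the series is not reported here. Named genes were DNTT, protein-coding genes with starts within 500 kb, RAG2, IGLL1 and IGLL5, and the 3 loci most like DNTT. Members, lists and named loci were chosen with earlier results of these data known. Alternatives were windows of 7.5 and 30 kb, exclusions of 5 and 20 kb, other totals, each pair counted once, counts divided by 3, neighbouring fragments left out and the outermost start.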

Additional observations from a re-analysis of the deposited data

How the results depend on the processing

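Of 252 values of the 28 main results under the alternatives, 234 kept their side of the threshold. Where the main result was called, these values also kept its direction. Where it was not called, the direction was not compared. E-P-X from 24 h to 96 h passed it at 0.083 in windows of 30 kb and at -0.13 against the whole chromosome. E-C-X from 24 h to 96 h missed it at 0.091 in windows of 7.5 kb, 0.079 against the whole chromosome and 0.21 with counts divided by 3. E-C-X in the 96 h-depl library turned to 0.032 of distant counts, and E-P-C there, at -1.65 in windows of 7.5 kb, had too few counts to test. C-P-X by 24 h missed it at 0.30 of distant counts and 0.54 with counts divided by 3. C-E-P by 24 h was 0.41 in windows of 7.5 kb, 0.14 in windows of 30 kb, 1.52 with each pair counted once and 1.99 with counts divided by 3, none of them called. C-E-P at 96 h against 0 h was 2.60, 2.17 and 2.42 in windows of 7.5 kb, with each pair counted once and with counts divided by 3, also not called for want of counts, and from 24 h to 96 h it was 0.87 and called in windows of 30 kb. The share beyond the enhancer, seen from the boundary site, missed the threshold at -0.033 from 24 h to 96 h with an exclusion of 5 kb. The distant share from the enhancer turned to -0.057 at 96 h against 0 h for the whole chromosome, and the CTCF site at -610.3 kb to 0.15 in the 96 h-depl library with each pair counted once. The cause was not tested.

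With counts divided by 3, bins called higher and lower went from 34 and 4 to 5 and 3 by 24 h, from 7 and 9 to 2 and 0 from 24 h to 96 h, from 33 and 8 to 7 and 4 at 96 h against 0 h and from 49 lower and 5 higher to 39 and 0 in the 96 h-depl library. From the boundary site 17 higher bins by 24 h became 0, 13 higher and 6 lower bins to 96 h became 3 and 0, and 20 and 3 at 96 h against 0 h became 7 and 0. In bins of 20 kb, which are fewer, 24 were higher by 24 h and 28 lower in the 96 h-depl library. No paired analysis was possible because there is 1 table per condition, taken as the sum of the 3 replicates, and for the same reason no replicate could be left out. Depth limited the triples of all 3 elements, with 3 to 50 counts.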
